A study of Homo sapiens with 18 samples.

Results

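Decitabine treatment of SW48 cells, an established human colon adenocarcinoma line, was compared with control siRNA alone, using the 3 libraries of each of these groups out of 18 libraries in 6 groups. The decitabine cells received 50 nM decitabine on days 1, 2 and 3 together with a control siRNA on days 1 and 2, and their RNA was taken on day 5. The control cells received the control siRNA on days 1, 3 and 6 without decitabine, and their RNA was taken on day 8. The drug, the number of siRNA doses and the day of RNA extraction therefore differ together between the groups and cannot be told apart in any value below. Whether replicate libraries are separate cultures is not stated in the labels, and the p-values therefore reflect a spread that may be purely technical. A second set of 6 libraries has the same contrast in cells given siRNA against CHD4 (siCHD4), a chromatin remodelling ATPase: siCHD4 with 50 nM decitabine (siCHD4 on days 1 and 2, RNA on day 5) and siCHD4 alone (days 1, 3 and 6, RNA on day 8). The 3 libraries with siRNA against the DNA methyltransferase DNMT1 (siDNMT1 on days 1, 3 and 5, control siRNA on days 7 and 8, RNA on day 11) were compared with decitabine to show where it differed from depletion of the enzyme. All 18 libraries entered the filter on low values and the fit, and so share in the spread behind each test. No group holds untreated cells.

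Decitabine is a deoxycytidine analogue that is phosphorylated in the cell and built into DNA during replication, where it traps DNA methyltransferases covalently and leads to loss of CpG methylation over successive divisions. The trapped enzymes are also a form of DNA damage, and p53 target genes are known to respond to it. Promoters of germline genes, of some imprinted genes and of many tumour suppressor genes are held silent by CpG methylation in colon cancer cells, and such genes are the classical readout of demethylating drugs.

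Expression was given as FPKM, a count of fragments divided by transcript length and by the size of the library. A gene was tested if 3 or more of the 18 libraries reached 1 FPKM (12809 of 23571 named genes), changes are differences of log2(FPKM + 1), which understate the change of low genes, and a gene is called higher or lower at a limma adjusted p below 0.05. Read totals were not used here. The worth of 1 fragment, read from low genes, was 4.11 times that of control replicate 0 in decitabine replicate 0, so this was the shallowest library, and 0.599 to 1.13 times in the other 17. Log2 values of the 3 decitabine libraries correlated across genes with r between 0.929 and 0.966, those of the 3 controls with r between 0.964 and 0.980, and libraries of different groups with r between 0.916 and 0.959. In decitabine replicate 0 the difference from the control mean also rose with the GC share of the transcript (r = 0.41 across 12267 genes), against 0.10 and 0.16 in decitabine replicates 1 and 2 and -0.13 to 0.08 in the controls. Counts are therefore given with and without that library.

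With decitabine, 1230 genes were higher (9.6% of those tested) and 1105 were lower (8.63%), 18.2% in all. The large changes were nearly all upward: 261 of the called genes were higher by at least 1 on the log2 scale and 25 were lower by as much, and at a difference of at least 2 the counts were 77 and 5. The 3 decitabine libraries all lay above or all below the 3 controls for 34.5% of the tested genes. Without decitabine replicate 0, 1038 genes were called higher and 940 lower, of which 1590 were among the 2335 called with it. The total of 2335 fell to 1520 without control replicate 0, to 1316 without control replicate 1, and to 929 in a fit on these 6 libraries alone.

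**Figure D1:**
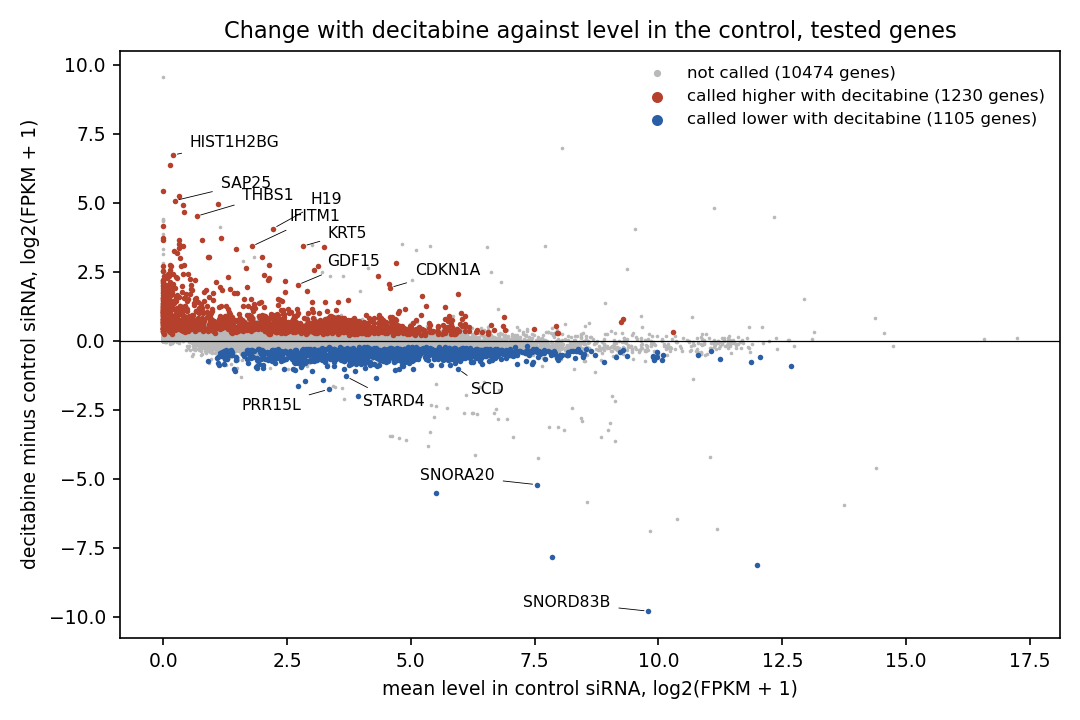
Change with decitabine against the mean level in the control for each of the 12809 tested genes, both on the log2(FPKM + 1) scale. The largest upward changes sit at the left, among genes close to 0 in the control, and the 5 called genes lower by more than 3 are small RNAs and a pseudogene.

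Genes that were near silence in the control were the ones called higher most often. Of 726 tested genes with a control mean under 0.5 FPKM, 333 (45.9%) were called higher with decitabine and 0 lower, while of 331 tested genes under 0.5 FPKM with decitabine 11 (3.32%) were called lower. A gene this low in the control was tested only if it reached 1 FPKM in 3 libraries, most of which must lie outside the control group, so the filter itself favours upward calls among such genes. With no filter on low values, 519 of 7503 such genes passed as higher and 16 as lower. The share called higher fell with the control level, to 12.0% between 1 and 5 FPKM and 1.14% at 100 FPKM or more, and the share called lower was 4.56% and 13.4% in those bins. Without decitabine replicate 0, 280 of 702 such genes passed as higher. After quantile normalization 198 of the 726 were called, and 208 in a fit on the 6 libraries alone.

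**Figure D2:**
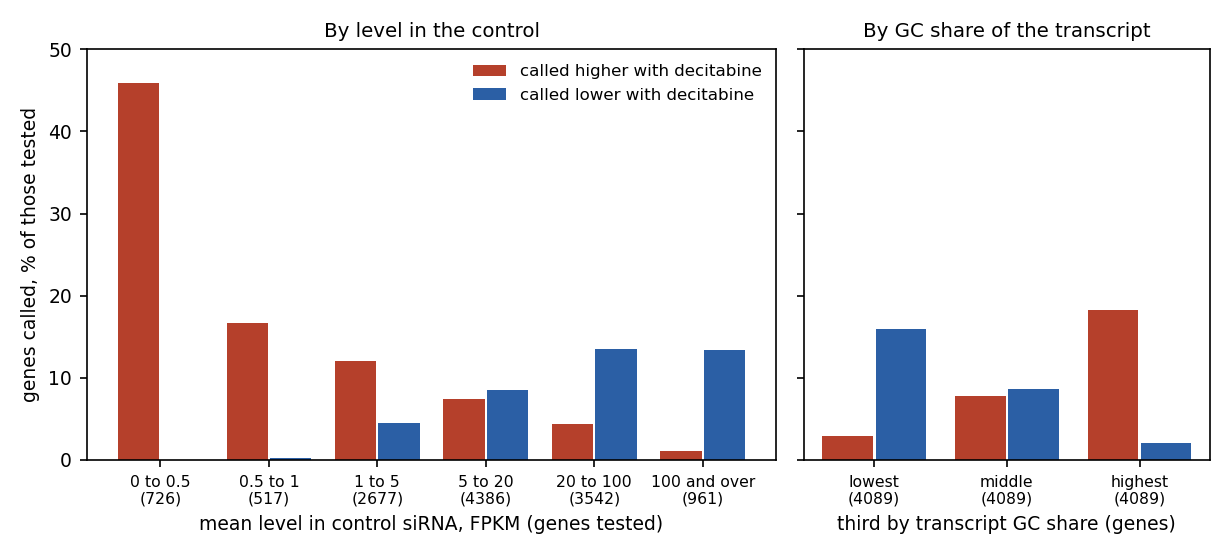
Share of tested genes called higher and called lower with decitabine, by mean FPKM in the control (left) and by 3 equal classes of the transcript GC share (right). Bars start at 0, and the number of genes in each bin stands under it. The share called higher falls from left to right over the control level, and it rises over the GC classes while the share called lower falls.

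Large upward changes were found in genes under or little above that level in the control. One was THBS1, which encodes the matrix protein and angiogenesis inhibitor thrombospondin 1 and lay just above 0.5 FPKM in each control. THBS1 (chromosome 15, 39873280 to 39891667, plus strand, GRCh37) was at 36.6, 35.7 and 34.3 FPKM in the decitabine libraries, against 0.638, 0.538 and 0.617 FPKM in the controls. No library of one group came near the other, and the log2 change was 4.52 (SE 0.08, adjusted p = 2.7e-15). SAP25, a subunit of a SIN3 corepressor complex (chromosome 7, 100169851 to 100171523, minus strand), was at 56.8, 30.9 and 32.4 FPKM with decitabine and at 0.345, 0.184 and 0 FPKM in the controls (log2 change 5.08, SE 0.20, adjusted p = 2.4e-10). ACRC, now named GCNA, a germ cell protein (chromosome X, 70798287 to 70833433, plus strand), was at 36.8, 32.1 and 31.1 FPKM with decitabine and at 0.436, 0.117 and 0.471 FPKM in the controls (log2 change 4.68, SE 0.13, adjusted p = 2.4e-12). In all of these the groups were far apart, and the shallow library was the highest of the decitabine libraries. The rule for naming the largest changes admitted only genes without overlap between the groups. The glucose transporter gene SLC2A3 was at 8.58, 10.4 and 11.0 FPKM with decitabine, against 0.202, 0.186 and 0.231 FPKM in the controls, and the water and glycerol channel gene AQP3 was at 17.6, 20.4 and 23.3 FPKM, against 1.10, 0.625 and 0.453 FPKM. In SLC2A3 and AQP3 the shallow library was the lowest of the 3 decitabine libraries, and both were called higher by more than 3 on the log2 scale (3.18 and 3.64). CRIP1, a small zinc-binding LIM protein, averaged 30.5 ± 15.2 FPKM with decitabine and 1.24 ± 0.459 FPKM in the controls (SD, n = 3 each; adjusted p = 2.6e-07). TUBA3D, an alpha-tubulin gene with near-identical copies among which reads can be split, was at 9.99, 4.50 and 2.89 FPKM with decitabine and at 0.227, 0 and 0.227 FPKM in the controls.

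Decitabine acts at CpG sites, so the promoter sequences of 3 genes that were near 0 in the controls are shown, THBS1, SAP25 and the cancer-testis gene PAGE2B. The sequences are the 250 bases before the start of the gene, 5′ to 3′ on the gene's strand, from RefSeq on GRCh38.p14, with each CpG in capitals. The windows are chr15:39580829-39581078, plus strand, for THBS1, chr7:100573901-100574150, minus strand, for SAP25, and chrX:55074780-55075029, plus strand, for PAGE2B.
THBS1: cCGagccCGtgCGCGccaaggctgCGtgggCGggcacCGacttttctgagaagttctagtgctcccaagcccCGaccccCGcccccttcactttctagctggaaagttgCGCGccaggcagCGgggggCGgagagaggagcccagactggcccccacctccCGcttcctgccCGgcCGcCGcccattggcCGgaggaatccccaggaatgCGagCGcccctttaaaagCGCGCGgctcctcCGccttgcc
SAP25: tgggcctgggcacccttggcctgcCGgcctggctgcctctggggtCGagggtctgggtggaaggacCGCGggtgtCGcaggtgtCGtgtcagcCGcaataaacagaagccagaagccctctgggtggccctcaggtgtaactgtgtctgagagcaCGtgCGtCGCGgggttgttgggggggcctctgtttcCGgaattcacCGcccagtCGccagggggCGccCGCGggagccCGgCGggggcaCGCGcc
PAGE2B: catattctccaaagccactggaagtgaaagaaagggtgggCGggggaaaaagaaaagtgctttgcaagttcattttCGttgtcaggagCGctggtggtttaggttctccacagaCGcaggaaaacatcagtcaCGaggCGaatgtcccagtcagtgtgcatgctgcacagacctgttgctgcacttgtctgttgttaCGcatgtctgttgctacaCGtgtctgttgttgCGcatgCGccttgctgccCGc

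These stretches hold 24, 21 and 11 CpG sites in the order shown. Over 300 bases, from 250 before to 50 after the start, the CpG count divided by the count that the C and G content would give was 0.80 in THBS1, 0.78 in SAP25 and 0.60 in PAGE2B. By the same measure on GRCh37 annotated starts, the 318 placed genes of the 333 called higher from under 0.5 FPKM had a median of 0.59, against 0.43 in the 356 placed genes that were equally low in the control and not called. Genes called higher from at least 0.5 FPKM had a median of 0.80, genes called lower 0.80, and all 12265 placed genes 0.80. The lower values of the silent genes are thus shared by silent genes that were not called. Methylation itself was not measured here.

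Cancer-testis and germline genes, which are normally expressed in germ cells and placed under CpG methylation in body tissues, were called higher more often than lower. Of 97 listed genes 94 are in the table, 36 were listed at 0 in all 6 libraries and 49 passed the filter, which genes this low in the control pass mostly through other groups. Of these 49, 30 were called higher and 0 lower, with a median log2 change of 0.67, against -0.02 over all tested genes. All 49 had a control mean of at most 0.477 FPKM. The closer background is therefore the 726 tested genes under 0.5 FPKM in the control, of which 45.9% were called higher and 0 lower. Without the filter 29 of 75 were called higher and 0 lower, and without decitabine replicate 0 it was 29 of the tested members. In a bulk library a low level in every cell and a high level in a few cells cannot be told apart. The summed level of the listed genes was 78.2 to 140 FPKM in the decitabine libraries and 2.31 to 4.96 FPKM in the controls.

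PAGE2B, a cancer-testis gene of the X chromosome (55101463 to 55105342, plus strand), was at 16.4, 13.4 and 8.01 FPKM with decitabine and was listed at 0 in the 3 controls (adjusted p = 1.7e-09). PRAME, an antigen of melanoma and testis (chromosome 22, 22890123 to 22901768, minus strand), was at 19.997, 9.98 and 10.9 FPKM with decitabine, against 0.0846, 0.422 and 0.225 FPKM in the controls (log2 change 3.50, SE 0.18, adjusted p = 3.6e-09). PAGE5 was at 5.37, 6.21 and 4.92 FPKM with decitabine and at 0, 0 and 0.325 FPKM in the controls, and SSX3, a nuclear antigen, was at 3.15, 4.88 and 5.16 FPKM, against 0, 0 and 0.183 FPKM. Every decitabine library of these 4 genes was above every control. Genes that silence transposons through piRNA in the germ line were among the called members: TDRD1 (6.40, 4.22 and 4.74 FPKM with decitabine, against 0.376, 0.429 and 0.625 FPKM in the controls), PIWIL2 (log2 change 1.63) and MAEL (1.87). The meiotic chromosome axis gene SYCP3 was at 6.28, 5.26 and 6.35 FPKM with decitabine and at 0.477, 0.127 and 0.357 FPKM in the controls. By family, 4 of 5 tested PAGE genes and 5 of 8 tested MAGE-A genes were called higher, and all of the tested ones were under 0.5 FPKM in the control. Members of these families are near-identical copies, so the value of any one of them is uncertain. In 23 of the 30 called members decitabine replicate 0 was the highest decitabine library, and 29 of the 30 were called without it.

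**Figure D3:**
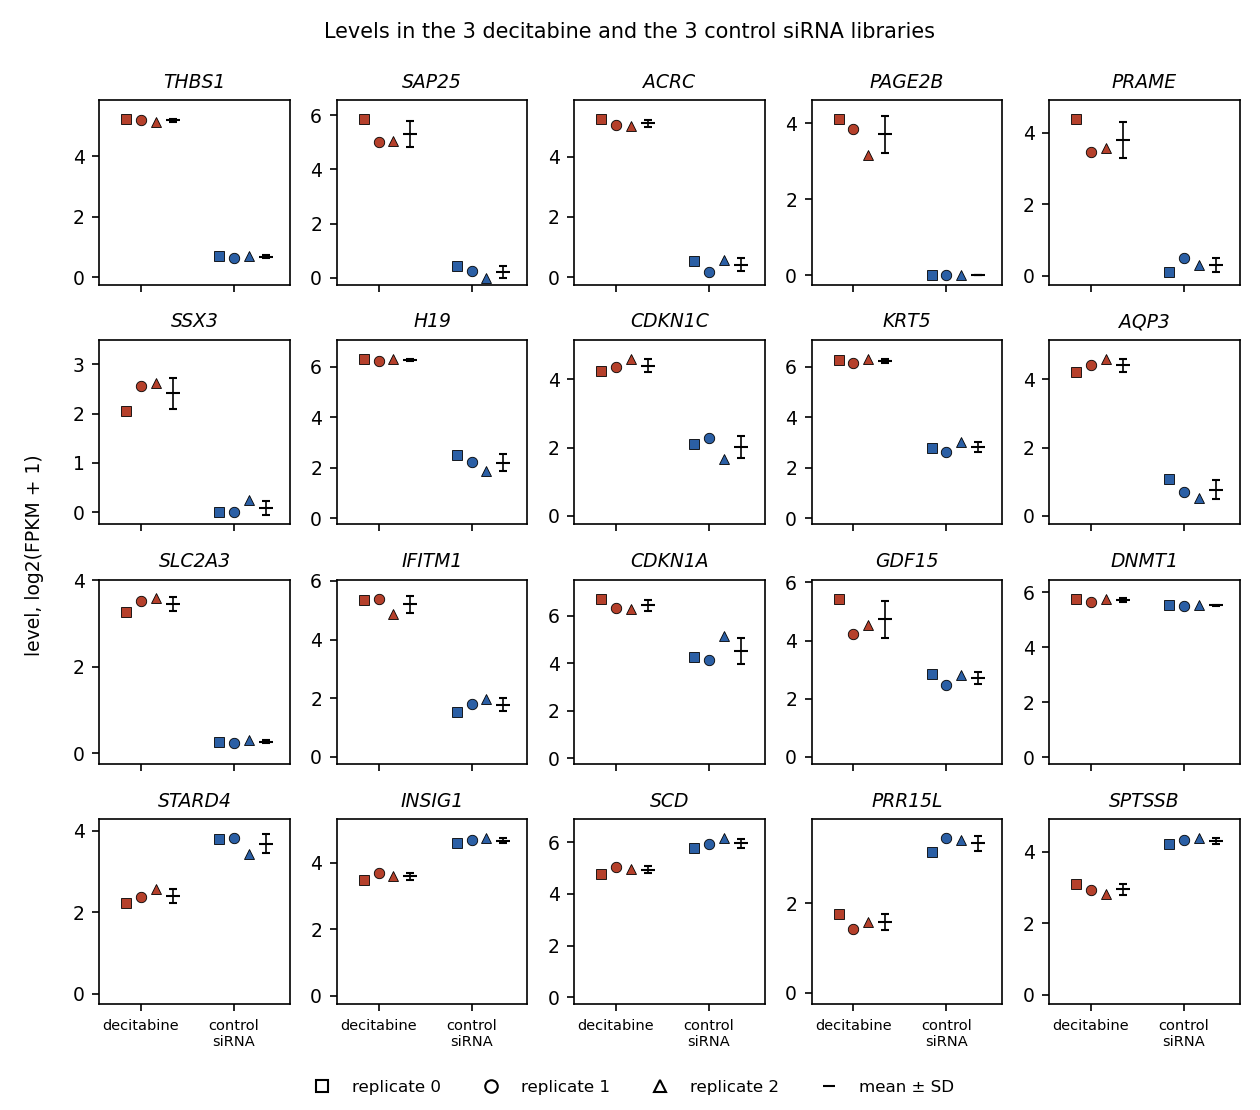
Level in each decitabine and control siRNA library for 20 genes named in the text, as log2(FPKM + 1), with the group mean and SD (n = 3 each) beside the points. For 19 of the genes the 3 decitabine libraries lie on one side of the 3 controls and the gene was called, and for DNMT1 they lie slightly above the controls without a call. Some of these genes were named by a rule that required such separation and a call.

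Imprinted genes, expressed from 1 parental allele under the control of allele-specific methylation, were mixed. Of 16 tested members 5 were called higher and 1 lower, with a median of 0.10, against 9.6% and 8.63% of all tested genes. H19, a long non-coding RNA made from the maternal allele (chromosome 11, 2016396 to 2025782, minus strand), was at 77.0, 72.6 and 77.8 FPKM with decitabine, against 4.73, 3.63 and 2.61 FPKM in the controls (log2 change 4.07, SE 0.13, adjusted p = 2e-11). CDKN1C, a cyclin-dependent kinase inhibitor of the same chromosome region (2904443 to 2907005, minus strand), was at 18.0, 19.3 and 23.3 FPKM with decitabine, against 3.29, 3.90 and 2.15 FPKM in the controls (log2 change 2.38, SE 0.26, adjusted p = 1.3e-05). The decitabine libraries were tight and clear of the controls in both genes. NLRP2, a maternal-effect gene, was at 1.35, 1.28 and 1.33 FPKM with decitabine and MKRN3 at 0.887, 0.338 and 0.497 FPKM, and both were listed at 0 in the controls. H19 was also higher with decitabine than with siDNMT1, where it averaged 19.8 FPKM.

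Keratins, the intermediate filament proteins of epithelia, were looked at after their values were seen. Of 15 tested keratins 8 were called higher and 0 lower, against 9.6% and 8.63% of all tested genes. Of these 15, 5 were under 0.5 FPKM in the control, and 4 of the 5 were called higher. Among all tested genes that low the share was 45.9%, and the filter favours upward calls there. KRT5, a keratin of stratified epithelia (chromosome 12, 52908359 to 52914314, minus strand), was at 75.7, 70.5 and 78.7 FPKM with decitabine, against 5.97, 5.13 and 7.14 FPKM in the controls (log2 change 3.43, SE 0.30, adjusted p = 1.5e-06). The hair keratins KRT81 (57.7, 15.9 and 17.2 FPKM with decitabine, 1.33, 0.882 and 3.16 FPKM in the controls) and KRT31 (12.2, 8.29 and 7.39 FPKM with decitabine, 0.311, 0.333 and 0.155 FPKM in the controls) were also called higher. The simple-epithelium keratins KRT8 and KRT18, which SW48 cells express at high level, changed by 0.00 and 0.06 (adjusted p = 0.99 and 0.80).

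Among interferon-stimulated and RNA sensing genes, which respond to viral RNA and, after demethylating drugs in several cell lines, to RNA of endogenous retroviruses, 7 of 40 tested members were called higher and 8 lower, with a median of -0.13. Over all tested genes the shares were 9.6% higher and 8.63% lower. The higher members of the list were led by genes of membrane restriction factors. IFITM1, which blocks viral entry (chromosome 11, 310041 to 315272, plus strand), was at 39.4, 41.2 and 28.5 FPKM with decitabine, against 1.91, 2.50 and 2.97 FPKM in the controls (log2 change 3.43, SE 0.20, adjusted p = 1.3e-08). IFITM2 was at 17.9, 11.8 and 14.0 FPKM with decitabine and at 1.04, 0.443 and 1.24 FPKM in the controls, and BST2, which tethers virions to the cell, was at 9.74, 3.31 and 3.28 FPKM, against 0.148, 0.158 and 0 FPKM. IFITM3, of the same family and list, was not called (log2 change 0.10, adjusted p = 0.76). The IFITM genes are close copies that can share reads. IRF7, a transcription factor of the interferon response, and ISG15, a ubiquitin-like modifier, were higher by 0.81 each. The deconjugating enzyme USP18, a negative regulator of interferon signalling, was lower, at 9.25, 9.27 and 10.7 FPKM with decitabine, against 17.2, 17.4 and 19.7 FPKM in the controls (log2 change -0.83, adjusted p = 0.00012). The 8 lower calls were 3 without decitabine replicate 1, 3 without control replicate 0, 2 without control replicate 1 and 4 with the GC trend removed, whereas the higher calls stayed at 6 or 7 when any 1 library of the compared groups was left out. Of 20 tested genes of antigen presentation 0 were higher and 4 lower, among them B2M, the light chain of HLA class I, at 199.9, 205 and 186 FPKM with decitabine, against 284, 288 and 279 FPKM in the controls (log2 change -0.52, adjusted p = 0.00058). PSMB10, an immunoproteasome subunit, was lower by 0.71 (adjusted p = 0.0054). The 4 lower calls were 2 without decitabine replicate 1 or 2 and without control replicate 1 or 2, where 8.63% of all tested genes were called lower in the main fit.

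The 4 largest upward changes among the called genes were all histone genes. Replication-dependent histone genes are transcribed in S phase, and their mRNA ends in a stem-loop in place of a poly(A) tail, so libraries made from total RNA without poly(A) selection, such as these, can hold it. Of 61 tested members 18 were called higher and 0 lower, while the list median was -0.14, and -0.37 without decitabine replicate 0. The members fell apart by their control level, a split made after the values were seen. The control level is 1 side of the contrast, so the split itself favours a rise among the low members. The share of all tested genes called higher was 45.9% under 0.5 FPKM in the control. It was 16.6% at 0.5 to 1 FPKM and 12.0% at 1 to 5 FPKM. Of 15 with a control mean under 5 FPKM, 14 were called higher, with a median log2 change of 3.67, and 2.89 without decitabine replicate 0. Of 46 with a control mean of 8.53 to 3673 FPKM, 4 were called higher and 0 lower, with a median of -0.25, and -0.44 without that library. HIST1H2AE, an H2A gene (chromosome 6, 26217149 to 26217665, plus strand), was at 172, 66.5 and 63.4 FPKM with decitabine, against 0, 0.325 and 0 FPKM in the controls (log2 change 6.37, SE 0.28, adjusted p = 8.5e-10). HIST1H2BG, its neighbour on the opposite strand, was at 288, 75.9 and 77.9 FPKM with decitabine, against 0, 0 and 0.456 FPKM (adjusted p = 1.1e-08). HIST1H3C, an H3 gene (26045612 to 26046097, plus strand), was at 87.1, 32.4 and 26.0 FPKM with decitabine and listed at 0 in the 3 controls (adjusted p = 2.5e-08).

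Linker histone genes, whose proteins bind the DNA between nucleosomes, split in the same way. HIST1H1B (chromosome 6, 27834570 to 27835366, minus strand) was at 93.3, 33.7 and 31.1 FPKM with decitabine, against 0, 0.199 and 0.556 FPKM in the controls (log2 change 5.26, SE 0.30, adjusted p = 1.1e-08). HIST1H1A was at 58.3, 31.3 and 32.6 FPKM with decitabine, against 0.189, 0.606 and 0.188 FPKM, and HIST1H1D was at 26.6, 13.0 and 13.5 FPKM and listed at 0 in the controls. HIST1H1C and HIST1H1E, by contrast, averaged 2263 ± 448 and 1875 ± 405 FPKM with decitabine and 2713 ± 501 and 2279 ± 359 FPKM in the controls (SD, n = 3 each; adjusted p = 0.46 and 0.44). Decitabine replicate 0 was the highest decitabine library in 18 of the 18 called members, at a median of 2.93 times the mean of the others, and 18 of 18 stayed called without it, while 2 other members were then called lower. The summed level of the listed histone genes was 31352 to 49522 FPKM with decitabine and 38653 to 54216 FPKM in the controls. A listed 0 need not mean that no transcript was there, and histone genes are short, near-identical copies, so the split of reads among them is uncertain.

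Promoters are shown for 3 of the histone genes with the largest upward changes. HIST1H2AE is also among these genes, but its window overlaps that of HIST1H2BG and is not shown. The sequences are again 250 bases before the start from RefSeq on GRCh38.p14, with CpG in capitals: chr6:26216689-26216938, minus strand, for HIST1H2BG, chr6:26045134-26045383, plus strand, for HIST1H3C, and chr6:27867589-27867838, minus strand, for HIST1H1B.
HIST1H2BG: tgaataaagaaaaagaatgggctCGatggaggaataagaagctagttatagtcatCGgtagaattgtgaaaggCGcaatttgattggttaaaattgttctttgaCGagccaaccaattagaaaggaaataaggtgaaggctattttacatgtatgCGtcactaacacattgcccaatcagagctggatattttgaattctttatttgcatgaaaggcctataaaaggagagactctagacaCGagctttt
HIST1H3C: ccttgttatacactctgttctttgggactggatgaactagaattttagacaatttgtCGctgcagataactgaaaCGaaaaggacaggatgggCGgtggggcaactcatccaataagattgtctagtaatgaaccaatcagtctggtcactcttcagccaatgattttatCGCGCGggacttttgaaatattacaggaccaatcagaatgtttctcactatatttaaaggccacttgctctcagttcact
HIST1H1B: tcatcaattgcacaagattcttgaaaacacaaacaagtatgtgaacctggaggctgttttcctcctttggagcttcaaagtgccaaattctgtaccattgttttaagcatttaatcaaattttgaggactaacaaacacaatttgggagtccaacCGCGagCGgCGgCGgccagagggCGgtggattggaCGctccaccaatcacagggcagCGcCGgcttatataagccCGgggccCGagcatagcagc

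The motif CCAAT, searched on both strands, occurs 3, 4 and 2 times in these 3 windows in the order shown. It was found in 88.2% of the 51 tested histone genes with a RefSeq window and in 32.0% of all 35116 windows. The motif TATAAA, searched in the same way, was found in 62.7% and 10.7% (the motifs were counted separately, whether or not they overlapped). In the 3 windows shown TATAAA occurs 1, 0 and 0 times. A match is a description of letters and not of binding. The 3 stretches hold 6, 6 and 11 CpG sites.

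p53 target genes, which act in cell cycle arrest, DNA repair and cell death, held higher calls and no lower ones. Of 40 tested members 26 were called higher and 0 lower, with a median log2 change of 0.48. Over all tested genes 9.6% were called higher and 8.63% lower, with a median of -0.02. CDKN1A, the cell cycle inhibitor p21 (chromosome 6, 36644237 to 36655114, plus strand), was at 103, 78.4 and 75.6 FPKM with decitabine, against 18.1, 16.4 and 34.0 FPKM in the controls (log2 change 1.92, SE 0.22, adjusted p = 2.5e-05). The stress cytokine GDF15 was at 42.6, 17.6 and 22.3 FPKM with decitabine, against 6.20, 4.54 and 5.97 FPKM in the controls (log2 change 2.03). In both genes the shallow library was the highest, and the groups did not overlap. SESN2, a stress-induced regulator of growth signalling, was tighter, at 6.69, 6.67 and 6.83 FPKM with decitabine, against 2.89, 2.85 and 3.24 FPKM in the controls (log2 change 0.95, SE 0.09, adjusted p = 2.5e-06).

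The damage recognition gene DDB2 was at 81.0, 64.1 and 65.2 FPKM with decitabine, against 32.0, 33.2 and 42.9 FPKM in the controls. MDM2, the ubiquitin ligase that limits p53, was at 28.4, 52.6 and 50.3 FPKM with decitabine, against 24.2, 26.6 and 23.8 FPKM (log2 change 0.74, and 1.02 without decitabine replicate 0). The death receptor decoy gene TNFRSF10C was at 2.07, 1.11 and 1.702 FPKM with decitabine and at most 1.5e-05 FPKM in the controls. Of the 26 called members, 22 were called without decitabine replicate 0, and 17 members were called without control replicate 1 and 13 in a fit on the 6 libraries alone. Control replicate 2 had the highest CDKN1A of the controls.

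**Figure D4:**
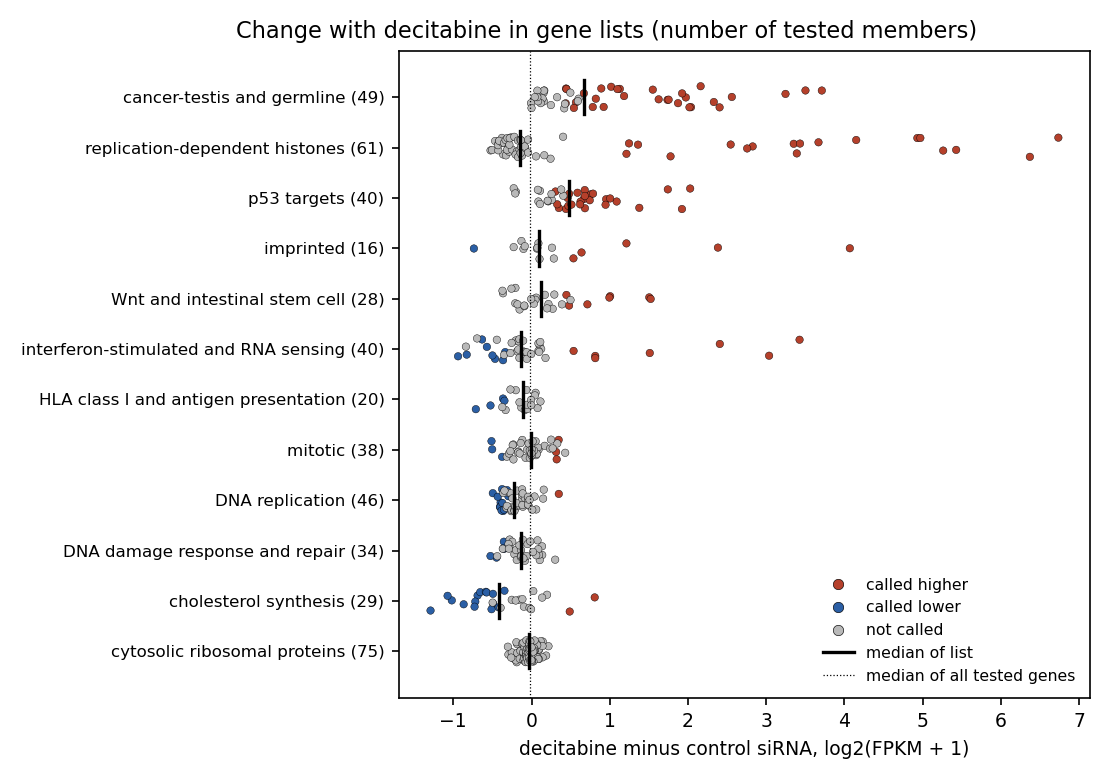
Log2 change with decitabine of each tested member of 12 gene lists, 1 point per gene, coloured by its call, with the list median as a bar. The points of cancer-testis genes and p53 targets lie mostly right of 0, those of cholesterol synthesis mostly left, histones show a dense cluster left of 0 and a tail reaching 6.73, and ribosomal protein genes hold no call.

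Cholesterol and fatty acid synthesis was the list with the most lower calls. Of 29 tested members 15 were called lower and 2 higher, with a median of -0.42, and all 15 were called lower without decitabine replicate 0. The shares over all tested genes were 8.63% lower and 9.6% higher. STARD4, a cytosolic sterol transporter (chromosome 5, 110831731 to 110848288, minus strand), was at 3.68, 4.18 and 4.98 FPKM with decitabine, against 13.0, 13.1 and 9.74 FPKM in the controls (log2 change -1.29, SE 0.13, adjusted p = 7.4e-06). INSIG1, which holds back the sterol sensor of the pathway, was at 10.2, 12.0 and 11.3 FPKM with decitabine, against 23.1, 24.6 and 25.8 FPKM (log2 change -1.07). The desaturase gene SCD was at 26.4, 32.2 and 30.1 FPKM with decitabine, against 53.7, 59.7 and 69.7 FPKM in the controls (log2 change -1.02). No decitabine library of these 3 genes reached the lowest control. Along the pathway the synthase gene HMGCS1 was lower by 0.73 on the log2 scale, the epoxidase gene SQLE by 0.69 and the demethylation enzymes CYP51A1 and MSMO1 by 0.72 and 0.87. SREBF2, the transcription factor of the pathway, changed by -0.20 (adjusted p = 0.44). The fatty acid synthase gene FASN was called higher (0.81, adjusted p = 0.018), a call lost without decitabine replicate 2 or control replicate 2 (adjusted p = 0.062 and 0.080) and with the GC trend removed (0.067).

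Among DNA replication genes, 12 of 46 tested members were called lower and 1 higher, and 33 were not called, with a median of -0.22. POLA1, the catalytic subunit of DNA polymerase alpha, was at 12.9, 15.2 and 14.1 FPKM with decitabine, against 18.3, 19.5 and 23.0 FPKM in the controls (log2 change -0.49, adjusted p = 0.0051), and RRM1, of ribonucleotide reductase, was at 106, 121 and 116 FPKM, against 146, 153 and 151 FPKM (log2 change -0.39, adjusted p = 0.0069). POLE, the leading strand polymerase, was higher by 0.35. The 12 lower calls were 10 without decitabine replicate 0 and 3 to 6 without decitabine replicate 2 or any 1 of the controls, and 7 with the GC trend removed. Of 34 tested genes of DNA damage response and repair 0 were higher and 5 lower, among them the crosslink repair gene FANCD2 (log2 change -0.34), the mismatch repair gene MSH6 (-0.45) and the checkpoint kinase ATR (-0.52). Of 38 mitotic genes 3 were higher and 3 lower, where the shares over all tested genes were 9.6% and 8.63%. The mitotic counts were 0 higher and 1 lower without control replicate 1, and 3 and 1 without decitabine replicate 0. Cyclin A, CCNA2, the mitotic gene with the smallest p, was at 53.4, 55.1 and 54.0 FPKM with decitabine, against 79.2, 75.7 and 77.9 FPKM in the controls. Of 75 cytosolic ribosomal protein genes 0 were called at adjusted p below 0.05.

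Among other genes with large downward changes, PRR15L, a proline-rich protein gene (chromosome 17, 46029333 to 46035249, minus strand), was at 2.38, 1.66 and 1.98 FPKM with decitabine, against 7.83, 9.97 and 9.62 FPKM in the controls (log2 change -1.75, SE 0.19, adjusted p = 1.3e-05). SPTSSB, a subunit of the enzyme that starts sphingolipid synthesis, was at 7.63, 6.57 and 6.02 FPKM with decitabine, against 17.6, 18.99 and 19.8 FPKM (log2 change -1.36). RAET1L, a stress ligand of the natural killer receptor NKG2D, was at 1.499, 1.43 and 2.099 FPKM with decitabine, against 7.46, 4.87 and 6.53 FPKM. These genes had no overlap between the groups, as the rule for naming the largest changes required, and 34.5% of all tested genes had none. The drug efflux pump gene ABCG2 was lower by 1.08, the urokinase receptor gene PLAUR by 1.11, TPRG1 by 1.41 and the zinc importer gene SLC39A8 by 1.02. The 5 called genes that were lower by more than 3 are the small nucleolar RNAs SNORD83B, SNORD33 and SNORA20, the microRNA gene MIR641 and the pseudogene P2RX6P. SNORD83B was listed at 0 in the 3 decitabine libraries and at 866, 927 and 864 FPKM in the controls. SNORD33 shows how such values scatter, at 0, 0 and 2727 FPKM with decitabine, against 2986, 3196 and 5982 FPKM in the controls. Changes of the 131 tested small nucleolar RNAs ranged from -9.79 to 9.54, with 3 called lower and 0 higher.

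The enzymes that decitabine acts on, and those that handle it, were called about as often as genes in general: 2 of 20 tested genes of the methylation machinery were higher and 1 lower. DNMT1 (chromosome 19, 10244018 to 10341962, minus strand), the maintenance methyltransferase, was at 53.3, 48.3 and 53.4 FPKM with decitabine, against 45.0, 43.7 and 45.4 FPKM in the controls. The decitabine libraries were all slightly above the controls (log2 change 0.20, adjusted p = 0.22; exact two-sided permutation test p = 0.1, the smallest that 3 against 3 allows). The drug acts on the protein, which was not measured. DNMT3B, a de novo methyltransferase, was at 5.01, 4.96 and 5.29 FPKM with decitabine, against 2.71, 2.69 and 4.17 FPKM in the controls, and was called higher (log2 change 0.56, adjusted p = 0.0061). This call was lost in a fit on the 6 libraries alone, where 0 of the 20 methylation machinery genes were called higher. DNMT3A (0.28, adjusted p = 0.12) and UHRF1 (0.06, adjusted p = 0.78), which guides DNMT1 to replicated DNA, were not called, nor was CHD4 (0.27, adjusted p = 0.19). Of 14 tested genes of decitabine uptake, activation and breakdown 0 were higher and 3 lower. DUT, the dUTPase, was at 30.7, 33.7 and 37.2 FPKM with decitabine, against 52.3, 53.1 and 46.2 FPKM in the controls (log2 change -0.57, adjusted p = 0.0046). DCK, the kinase that activates the drug, was at 12.8, 25.6 and 22.01 FPKM with decitabine, against 29.6, 29.6 and 29.1 FPKM in the controls. Its call rests on decitabine replicate 0, with adjusted p = 0.032 with it and 0.077 without it, and was also lost without any 1 control (0.066 to 0.085). CMPK1, the next kinase, likewise had adjusted p = 0.030 with and 0.11 without decitabine replicate 0, and 0.089 and 0.11 without control replicates 0 and 1. The nucleoside transporter gene SLC29A1 (-0.03, adjusted p = 0.93) and the deaminase gene CDA (-0.16, adjusted p = 0.68) were not called.

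Genes often hypermethylated in colorectal cancer were for the most part still too low to test. Of 48 listed genes 12 were tested, of which 3 were called higher and 1 lower, and 12 were listed at 0 in all 6 libraries. Besides THBS1, NDRG4 was higher (log2 change 0.54, adjusted p = 0.0030). SPARC was at 1.05, 0.250 and 0.170 FPKM with decitabine, against 0, 0.0341 and 0 FPKM in the controls, and its adjusted p of 0.045 was 0.15 without decitabine replicate 0 and 0.097 to 0.105 without any 1 control. Of 28 tested Wnt and intestinal stem cell genes 7 were higher and 0 lower, led by the Wnt inhibitors NKD1 (7.57, 8.19 and 8.11 FPKM with decitabine, 1.86, 2.20 and 2.30 FPKM in the controls) and DKK4, which was at 2.19, 1.79 and 1.57 FPKM with decitabine and listed at 0 in the controls. Without control replicate 1, without control replicate 2 and with the GC trend removed the count of higher Wnt and stem cell genes was 3. Without decitabine replicate 2 it was 4. Over all tested genes 9.6% were called higher and 8.63% lower.

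Markers of the cell line were checked beside these groups. Of 8 tested colon epithelium markers the brush border gene VIL1 was called higher (3.69, 3.06 and 3.03 FPKM with decitabine, 0.597, 0.639 and 0.851 FPKM in the controls). EPCAM was called lower (131, 213 and 202 FPKM with decitabine, 270.2, 279 and 226 FPKM in the controls), a call lost without decitabine replicate 0 (adjusted p = 0.067), control replicate 0 (0.077) or control replicate 1 (0.093). The summed level of the 9 epithelial markers was 1883 to 2457 FPKM with decitabine and 2015 to 2127 FPKM in the controls. Fibroblast markers summed to 0.624 to 3.90 FPKM with decitabine and to 0.121 to 0.490 FPKM in the controls, and LUM among them was at 0.466, 3.23 and 3.16 FPKM, against 0.339, 0 and 0.113 FPKM. Blood markers summed to 4.21 to 6.24 FPKM with decitabine and 2.25 to 4.07 FPKM in the controls, and endothelial and neural markers stayed below 1 FPKM in sum in each library. Of these markers 3 of 8 fibroblast, 2 of 8 blood, 3 of 6 endothelial and 1 of 6 neural genes were listed at 0 in all 6 libraries, and their part in the results was not tested.

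The libraries with siCHD4 give the same contrast with no shared sample, and with the same difference of schedule. There, 981 genes were called higher (7.66%) and 805 lower (6.28%). Of the 1230 genes higher with decitabine after control siRNA, 602 were also higher after siCHD4 (48.9% of these and 61.4% of the 981), and of the 1105 lower genes 280 were also lower (25.3% and 34.8% of the 805). Of the 333 genes called higher from under 0.5 FPKM, 278 (83.5%) were called higher after siCHD4 too, with a median log2 change of 1.08 there, against 0.94 after control siRNA. Genes this low in the control can pass the filter through the libraries of siCHD4 with decitabine, which favours higher calls there. The share was not set against that of equally low genes without a call, so how much of it the filter gives is not known. Across the 12809 genes the changes correlated with r = 0.47 and rho = 0.47, as a description, since genes are not independent replicates. THBS1 averaged 36.7 FPKM with siCHD4 and decitabine and 0.701 FPKM with siCHD4 alone, and H19 66.9 and 5.26 FPKM. The 49 cancer-testis genes passed the filter partly through libraries of other groups, where they are high, so their counts in this contrast are not given. Over all tested genes 99 effects were more positive after siCHD4 (0.773%) and 49 more negative (0.383%), 1.16% together. Cholesterol genes were lower in 10 of 29 cases there and p53 targets higher in 18 of 40. Histones were mixed: 15 of 61 were higher and 40 lower with siCHD4 and decitabine than with siCHD4 alone, with a median of -1.01, and 7 passed the test of the difference. HIST1H2BG, for example, averaged 91.2 FPKM with siCHD4 and decitabine and 17.6 FPKM with siCHD4 alone. The 1786 calls of this contrast were 1063 and 1074 without replicates 0 and 1 of siCHD4 with decitabine, 3395 without siCHD4 replicate 2, and 837 in a fit on the 6 libraries alone.

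**Figure D5:**
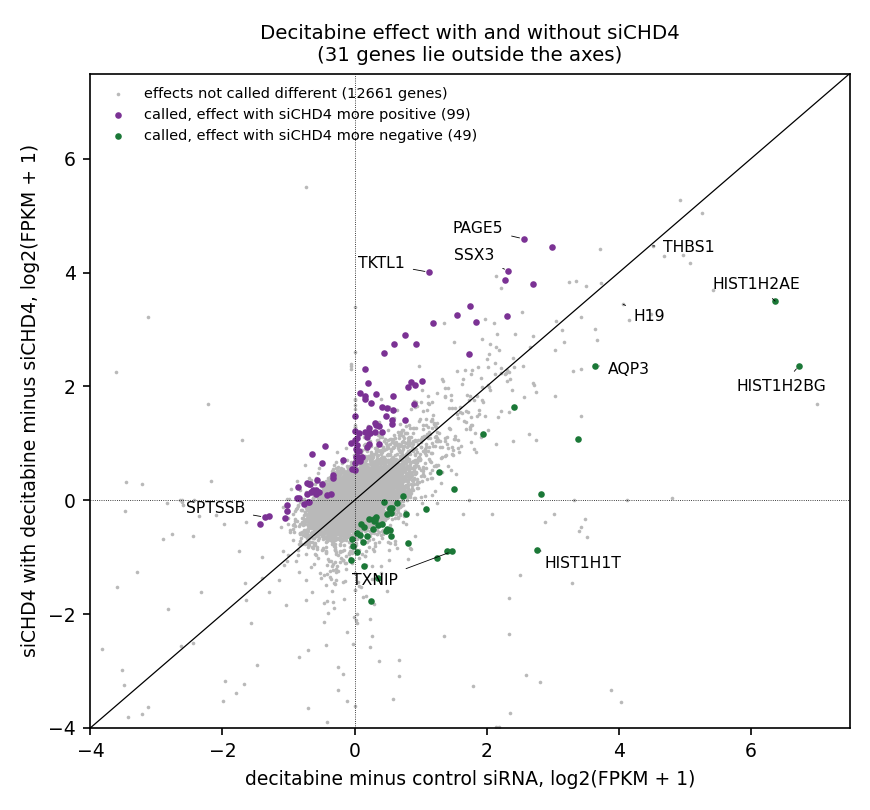
Log2 change with decitabine after siCHD4 (vertical) against that after control siRNA (horizontal) for the tested genes, with the line of equal change. Points above the line in colour are genes whose effect was called more positive with siCHD4 (99), points below it in colour are those called more negative (49), and 31 genes lie outside the axes.

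A direct test of decitabine against siDNMT1, which differ in schedule too, called 264 genes higher with decitabine and 344 lower (2.06% and 2.69%, 4.75% in all). The total of 608 was 19 in a fit on the 6 libraries alone, 388 and 340 without decitabine replicates 0 and 2, and 157, 150 and 274 without siDNMT1 replicates 0, 1 and 2. DNMT1 was at 51.7 ± 2.91 FPKM with decitabine and 12.3 ± 1.15 FPKM with siDNMT1 (SD, n = 3 each). Of the 333 genes called higher from under 0.5 FPKM, 25 were higher and 28 lower with decitabine than with siDNMT1, and 0 of the 61 histone genes were called at an adjusted p below 0.05 by limma (2 at an unadjusted p below 0.05), which does not show that their levels were alike. THBS1 averaged 35.5 FPKM with decitabine and 79.7 FPKM with siDNMT1, and SPTBN5, a spectrin gene, 1.59 and 7.27 FPKM. TUBA3D (5.796 and 0.763 FPKM) and the sulfatase gene SULF2 (9.57 and 2.98 FPKM) were higher with decitabine. Of 40 p53 targets 9 were higher and 0 lower with decitabine than with siDNMT1, and of 29 cholesterol genes 0 were higher and 5 lower.

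The base composition of transcripts moved with the calls and was not tested as a part of any one of them. Of genes in the highest of 3 equal classes of transcript GC share 18.3% were called higher and 2.03% lower, and in the lowest class 2.96% were higher and 15.9% lower, with median changes of 0.14 and -0.16. The median changes after siCHD4 were 0.04 and 0.02. Chromosome 19, for example, had 16.2% of its 848 tested genes called higher and 1.77% lower, and chromosome 4 had 6.51% of 415 higher and 20.7% lower. When the GC trend of each library was removed, a step added after the data were seen, 1108 genes were called higher and 1020 lower, of which 1538 were among the 2335, and 299 of the 726 genes near silence in the control passed as higher.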

How the data were processed

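RNA of SW48 cells was sequenced as stranded total RNA after removal of ribosomal RNA, per the labels' protocols. The authors deposited a table of FPKM values per gene, made with TopHat2 2.0.9 and Cuffdiff 2.1.1 on hg19, per the submitters' processing notes. Of its 23599 rows, 28 (0.119%) have names turned into dates and were dropped. The table holds no counts, so neither intervals nor detection limits were computed, and a listed 0 can be a failed estimate. Precision rests on 3 libraries per group.

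Values were taken as log2(FPKM + 1). Genes reaching 1 FPKM in 3 or more libraries were fitted with limma 3.58.1 in R 4.3.3, with 1 mean for each of the 6 groups over all 18 libraries, empirical Bayes moderation with a trend and Benjamini-Hochberg adjustment over the 12809 genes, at 0.05. Tested on simulated data for this contrast (12390 genes), the fit recovered 89% of genes changed by 1 on the log2 scale and 98% of those changed by 2, and 4.59% of its calls were false. These shares hold for the simulated data only and do not give the share of false calls in the real data. Deviations of same-numbered libraries correlated at -0.115, 0.0633 and -0.125, so the numbers were not taken as pairs. Figures and summaries used Python 3.11.15 with pandas 2.3.3, scipy 1.17.1 and matplotlib 3.10.9.

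Alternatives were another pseudocount (0.1), no filter or a filter at 5 FPKM, median-ratio and quantile scaling, library weights, a replicate block, a fit on the compared groups alone, leaving out each library, and, added after the data were seen, removal of the GC trend. The groups, gene lists and tests were chosen with earlier results of these data known. Named genes are the methylation and decitabine handling genes, the 15 largest separated changes in each direction that held without decitabine replicate 0, the 4 members of each list with the smallest p, and the 5 largest changes in each direction of the other contrasts. GDF15, MDM2, TDRD1, PIWIL2, MAEL, SYCP3, the KRT genes, HIST1H1C, HIST1H1E, HMGCS1, SQLE, CYP51A1, FASN, SREBF2, IRF7, ISG15, the 5 small RNAs and pseudogene, the families and the promoters of THBS1 and PAGE2B were chosen after their values were seen. Not every gene the rule admits is reported here.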

Additional observations from a re-analysis of the deposited data

Results flagged for a closer look

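The decitabine effect on 21 named genes differed between the siRNA backgrounds by limma's test of the difference, which called 148 of 12809 genes (1.16%). Values are the change after siCHD4 minus the change after control siRNA, on the log2(FPKM + 1) scale. In none of these cases was a cause tested, and the total was 78, 81 and 88 without replicates 0, 1 and 2 of siCHD4 with decitabine, 307 without siCHD4 replicate 2, and 81 and 71 without control replicates 0 and 1.

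A more positive change after siCHD4 was found among cancer-testis and other near-silent genes. These were PAGE5 (2.03, adjusted p = 8e-05), SSX3 (1.70, adjusted p = 0.00017), MAGEA4 (2.14, adjusted p = 1.5e-05) and VCX (2.15, adjusted p = 5.1e-05). All 4 were listed at 0 with siCHD4 alone, and MAGEA4 and VCX also in the control, so their values depend on the pseudocount and give no fold. Mean levels with siCHD4 and decitabine were 23.3 FPKM for PAGE5, 15.4 FPKM for SSX3, 5.03 FPKM for MAGEA4 and 4.01 FPKM for VCX, against 5.50, 4.40, 0.365 and 0.126 FPKM with decitabine alone. MAGEA4 and VCX could not have passed the filter through the control, decitabine and siCHD4 libraries. Genes near 0 in those groups pass it through libraries where they are high, such as siCHD4 with decitabine. The filter itself therefore favours a positive difference among such genes. The others were TKTL1 (2.88, from 4.01 after siCHD4 and 1.13 after control siRNA, adjusted p = 0.00016), HCLS1 (2.15, from 2.91 after siCHD4 and 0.76 after control siRNA, adjusted p = 0.00011) and KRT31 (1.46, from 4.45 after siCHD4 and 3.00 after control siRNA, adjusted p = 0.015).

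The change was less negative after siCHD4 for STARD4 (1.02, from -0.27 after siCHD4 and -1.29 after control siRNA, adjusted p = 0.014), SCD (0.82, from -0.19 after siCHD4 and -1.02 after control siRNA, adjusted p = 0.023), SPTSSB (1.06, from -0.30 after siCHD4 and -1.36 after control siRNA, adjusted p = 0.0023) and SLC39A8 (0.94, from -0.08 after siCHD4 and -1.02 after control siRNA, adjusted p = 0.037), and for RAET1L (1.02, from -0.41 after siCHD4 and -1.44 after control siRNA, adjusted p = 0.015) and CNTNAP2 (0.73, from -0.32 after siCHD4 and -1.05 after control siRNA, adjusted p = 0.023). SPTSSB averaged 5.34 FPKM with siCHD4 and decitabine and 6.80 FPKM with siCHD4 alone, against 6.74 FPKM with decitabine and 18.8 FPKM in the control. The fall after control siRNA is subtracted in the difference, so naming genes for a large fall favours a positive difference. Of all 1105 genes called lower after control siRNA, 30 had a called difference, 30 positive and 0 negative.

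A more negative change after siCHD4 was found for the histone genes HIST1H2BG (-4.37, from 2.37 after siCHD4 and 6.73 after control siRNA, adjusted p = 0.0007), HIST1H2AE (-2.87, from 3.50 after siCHD4 and 6.37 after control siRNA, adjusted p = 0.0017), HIST1H1T (-3.62, from -0.87 after siCHD4 and 2.76 after control siRNA, adjusted p = 0.0017) and HIST1H2BI (-2.72, from 0.11 after siCHD4 and 2.83 after control siRNA, adjusted p = 0.0014), and for TXNIP (-2.38, from -0.90 after siCHD4 and 1.48 after control siRNA, adjusted p = 0.0093), ACTA2 (-1.30, from 0.20 after siCHD4 and 1.50 after control siRNA, adjusted p = 0.015), AQP3 (-1.28, from 2.37 after siCHD4 and 3.64 after control siRNA, adjusted p = 0.023) and DNMT3B (-0.78, from -0.23 after siCHD4 and 0.56 after control siRNA, adjusted p = 0.041). HIST1H2BI averaged 152 FPKM with siCHD4 and decitabine and 145 FPKM with siCHD4 alone, against 186 FPKM with decitabine and 24.9 FPKM in the control. The rise after control siRNA is likewise subtracted, which favours a negative difference for genes named for a large rise.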

How the results depend on the processing

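The calls of decitabine against control siRNA (2335) lay between 1316 (without control replicate 1) and 2339 when 1 library was left out, and were 929 on the compared groups alone and 5621 with library weights. With the replicate block, which pairs libraries by number, they were 2059, with 2038 shared, and the numbers were not shown to pair the libraries. The 333 calls from under 0.5 FPKM were 256 to 325 without 1 library, 519 with no filter, 91 with the filter at 5 FPKM, 198 with quantile normalization and 208 on the compared groups alone. Against siDNMT1, 608 calls became 150 to 856 without 1 library, 361 with the block, 3827 with weights, 366 with the GC trend removed and 19 on the compared groups alone. The 1786 calls after siCHD4 became 1063 to 3395 without 1 library, 6958 with weights and 837 on the compared groups alone. The 148 differences of effect became 71 to 307 without 1 library, 83 with the filter at 5 FPKM, 97 with the block, 2413 with weights and 42 on the compared groups alone. The causes of these shifts were not tested. Library weights gave decitabine replicate 0 a weight of 0.0923, and with them 28 of 61 histone genes were called lower beside 18 higher. No named gene changed sign between a call and an alternative in the alternatives run. The schedule cannot be told apart from the drug, and depth, known only in relative terms, limits low genes most in decitabine replicate 0.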
